A study of Mus musculus with 6 samples.

Results

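In peak lists of HNRNPA2B1 binding made from mouse C2C12 muscle cells, 169 of 866 autosomal regions (19.5%) had a peak in both libraries of differentiated cells and in neither library of myoblasts. These myotube-only regions were selected on the presence and absence of peaks in the same 4 lists that are described here. Their presence in myotubes and absence from myoblasts is therefore how they were chosen, not a result, and it was not tested. A region was a run of touching or overlapping peaks of the 4 lists on 1 strand of chromosomes 1 to 19, with 3 loci very rich in peaks left out. Over every chromosome and locus the lists gave 1015 regions.

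HNRNPA2B1 is a heterogeneous nuclear ribonucleoprotein that coats newly made RNA and is known for roles in alternative splicing, in the stability of messages and in RNA transport. Its sites were located by eCLIP, in which ultraviolet light links protein to RNA in living cells, an antibody recovers the protein with short RNA fragments, and the fragments are sequenced beside a size-matched input. C2C12 is an immortalised mouse myoblast line. When serum is lowered its cells leave the cell cycle, fuse into multinucleate myotubes and switch on the genes of the sarcomere and of the membrane system that couples excitation to contraction.

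The groups were C2C12, kept in DMEM with 20% FBS, and differentiated C2C12, which the labels place in DMEM with 5% horse serum and ITS for 8 to 10 days. Each had 2 immunoprecipitation libraries, A and B, and the series also lists 1 input sample per state. All cells came from the same unmodified line, were irradiated at 254 nm and 150 mJ, and were treated with an antibody to the endogenous protein. The labels state that nuclei were isolated first, whereas the study's methods describe lysis of whole cells and a shorter differentiation, and the lists cannot tell which holds. The methods also describe 1 input library per replicate, so whether A and B of a state share an input is not known. The study describes A and B of each state as independent biological samples, which the labels do not detail.

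For each peak the authors deposited the log2 fold enrichment of immunoprecipitated over input reads and a −log10 p for that enrichment. Lists began at a −log10 p of 5, so a region without a C2C12 peak is one with no peak at or above that level in either myoblast list, whether because none was called or because it was too weak. Read counts are not in the lists, the depth of each library is unknown, and more RNA and more binding per RNA cannot be told apart. Coordinates below are those of the mouse mm9 build, counted from 1. Gene names came from transcript extents on mm9 that the study supplied for transcripts in which it had found peaks. They are thus no independent evidence, and a region without a name may still lie in a gene.

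The 4 lists held 228 and 252 autosomal peaks outside the left-out loci in C2C12 A and B, and 723 and 605 in differentiated C2C12 A and B. The means were 240 ± 17.0 and 664 ± 83.4 (SD, n = 2 each), a ratio of 2.77, and an exact permutation test, two-sided, gave p = 0.333, which is the smallest value possible with 2 libraries a state. List length bears directly on the number of myotube-only regions. With each list cut to its 228 best-ranked autosomal peaks, 51 regions were myotube-only and 71 were found in both C2C12 lists only, against 169 and 65 with the lists as deposited. Of the 169 regions, 50 were overlapped by one of those 51.

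Myotube-only regions held 288 of the 723 autosomal peaks of differentiated C2C12 A (39.8%) and 231 of the 605 of replicate B (38.2%). They were 77.5% of the 218 regions with a peak in both differentiated lists. A further 489 regions without a C2C12 peak were listed in a single differentiated library, 263 in A and 226 in B, so most sites seen in 1 myotube library and in no myoblast library had no counterpart in the other myotube library. In the 169 regions peaks of A and B meet by the rule itself. In 127 of them some pair of peaks overlapped by at least 50% of the longer peak. Of 24700 nt covered, 15128 nt (61.2%) were covered by both libraries.

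The regions were short. Their width ran from 22 to 534 nt with a median of 137 nt, beside a median of 148.5 nt for the 36 regions with a peak in all 4 lists and of 99 nt for the 65 regions found in both C2C12 lists only. A single peak made up 103 of the 169 in differentiated C2C12 A and 125 in B. There were 76 regions on the plus strand and 93 on the minus strand, and none was overlapped by a peak on the opposite strand. Myotube-only regions lay on 18 of the 19 autosomes. Chromosomes 6 and 8 held 19 each, of 65 and 46 regions, while none of the 38 regions of chromosome 10 was myotube-only. Few transcripts made up much of these counts, with 6 in Luc7l2 and 4 in Zyx on chromosome 6 and 8 in Ankrd10 on chromosome 8.

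Enrichment was moderate and similar in both myotube libraries. Only regions with a peak in both lists were kept, so this likeness is in part set by the rule. It leaves out the 489 regions listed in a single differentiated library. The highest log2 fold enrichment of a region had a median of 2.35 in A (range 0.90 to 6.34) and 2.20 in B (0.77 to 6.12). Replicate A was higher in 89 regions and B in 80. The median absolute difference between them was 0.30, and 14 regions differed by more than 1. The largest gap was in Gadd45a, a gene induced by growth arrest and DNA damage, with 4.43 in A and 1.10 in B. The next named example in the plot of enrichment is an Ankrd10 region with 4.80 in A and 1.70 in B, and both of these had several peaks in A and 1 in B.

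**Figure D1:**
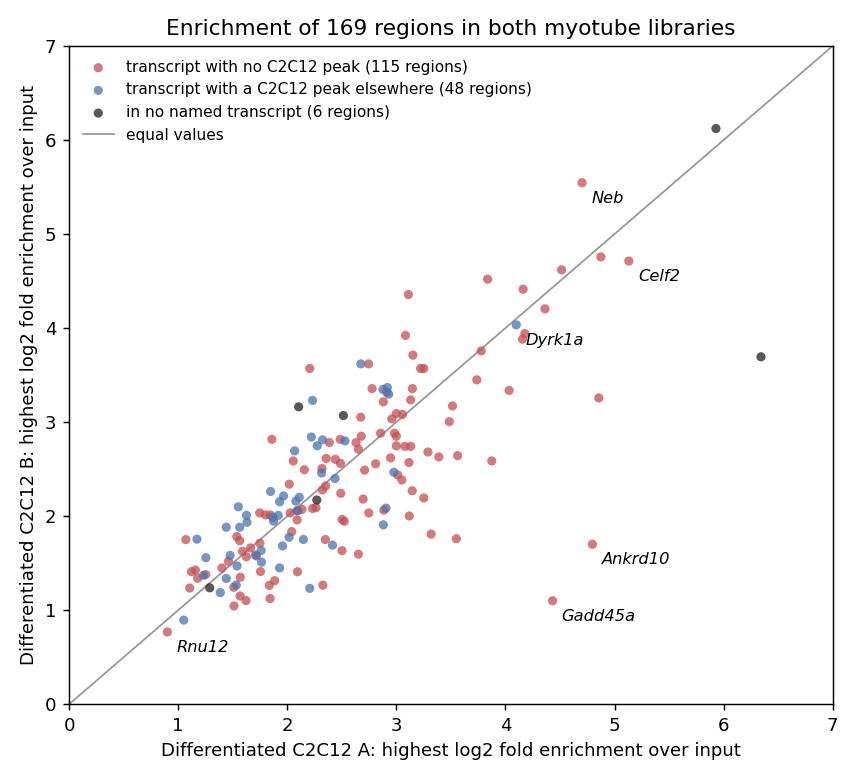
Highest log2 fold enrichment over input of each of the 169 myotube-only regions in differentiated C2C12 A (horizontal axis) and B (vertical axis). Points are regions, coloured by whether their named transcript also held a C2C12 peak (48 regions), held none (115 regions) or was unnamed (6 regions), and the line marks equal values. Most points lie near the line, with Gadd45a and an Ankrd10 region far below it.

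The −log10 p of the same regions had lower medians than that of the regions in all 4 lists. Its highest value per region had a median of 7.63 in A (5.03 to 30.2) and 7.49 in B (5.03 to 24.3), and no region reached the ceiling of 400. Regions with a peak in all 4 lists had medians of 11.6 and 9.93 in the same libraries. A single peak made up 12 (A) and 17 (B) of these 36 regions, against 103 and 125 of the 169 myotube-only ones. The highest value over more peaks tends to be higher, and the medians were not adjusted for this. In each library 26 myotube-only regions stood among the best 100 autosomal peaks, the first at rank 28 in A and rank 31 in B. In both libraries 49 regions reached 8 and 69 stayed under 8. The log2 fold enrichment of the regions in all 4 lists had medians of 2.26 and 2.35 in differentiated C2C12 A and B, close to those of the myotube-only regions. In C2C12 A and B the same regions of all 4 lists had medians of 2.74 and 2.79, and the regions found in both C2C12 lists only had 3.09 and 2.94. Values from C2C12 and from differentiated libraries are thus not directly comparable.

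**Figure D2:**
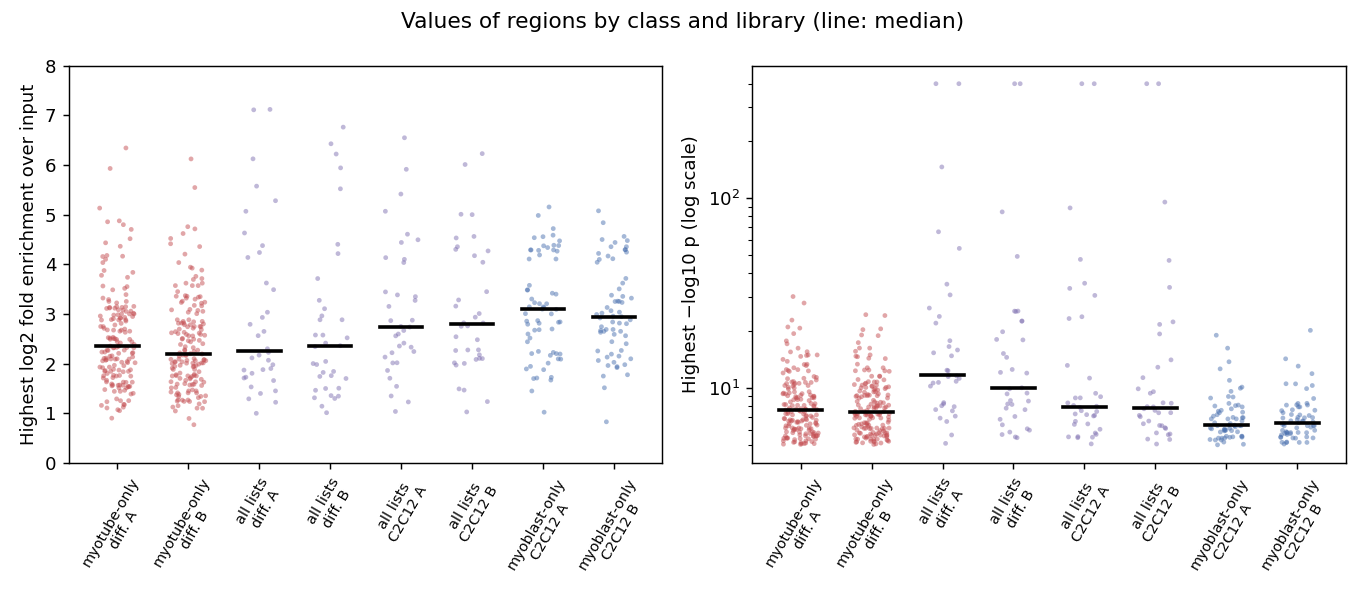
Highest log2 fold enrichment (left) and highest −log10 p on a log scale (right) of each region, for the 169 myotube-only regions, the 36 regions with a peak in all 4 lists and the 65 regions of both C2C12 lists only, in each library that has peaks there. Points are regions and black lines are medians, which for −log10 p were 7.63 and 7.49 in myotube-only regions and 11.6 and 9.93 in the regions of all lists in differentiated C2C12 A and B.

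Peaks near the lower limit of the lists decided the class of some regions. Just inside the selection, by their differentiated peaks, lay an Ankrd10 region with a −log10 p of 5.03 in A and 8.83 in B and a Gpi1 region with 5.42 and 5.03. Outside lay 13 regions with a peak in both differentiated lists and in 1 C2C12 list. In these the −log10 p of the C2C12 peak ran from 5.01 to 17.4, the highest in Cmss1 (log2 fold enrichment 0.18 in C2C12 A, 400 for −log10 p in both differentiated lists). The weakest C2C12 peaks were in Zeb1, a repressor of epithelial genes (C2C12 B, −log10 p 5.01), in a pair of Bin1 regions (C2C12 A, 5.15 and 5.31) and in Ehbp1l1 (C2C12 A, 5.43). Zeb1 had log2 fold enrichments of 2.51 in C2C12 B, 2.45 in differentiated C2C12 A and 2.57 in B, and Ehbp1l1 had 1.70 in C2C12 A, 1.75 in differentiated C2C12 A and 2.26 in B.

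Named transcripts held 163 of the 169 regions, in 86 transcripts. Of these, 68 transcripts had no C2C12 peak anywhere and held 115 regions, and 18 had a C2C12 peak at another place and held 48. The first set had median log2 fold enrichments of 2.65 in A and 2.44 in B, the second 1.96 and 2.00. One region was found in each of 55 transcripts and 2 in each of 18. The remaining 13 transcripts held 3 to 9 each.

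**Figure D3:**
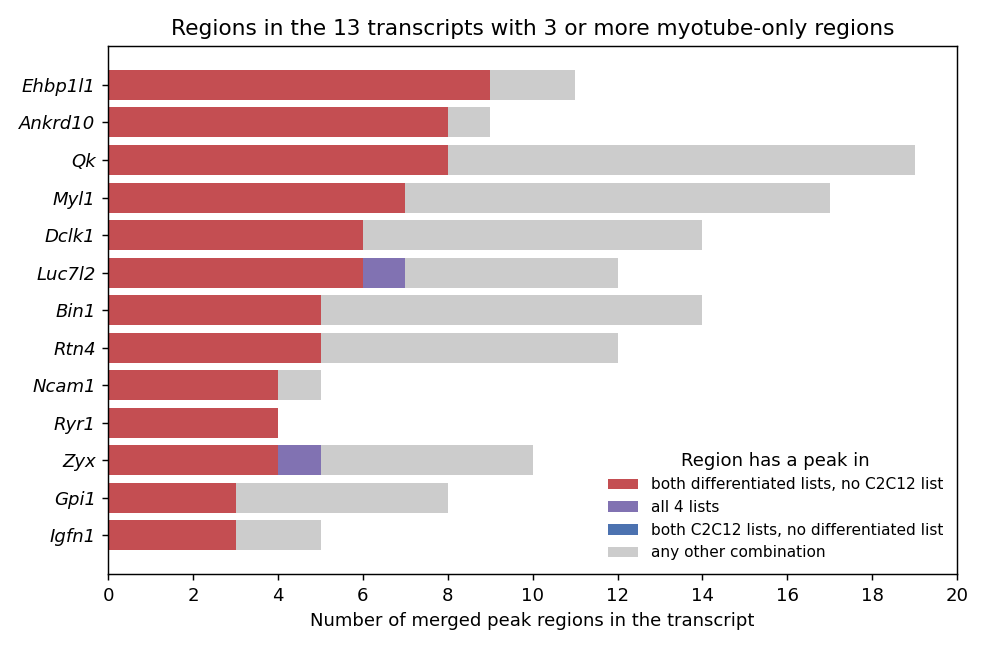
Number of merged peak regions (horizontal axis) in the 13 transcripts with at least 3 myotube-only regions, split by the lists in which the region has a peak. Ehbp1l1 leads with 9 myotube-only regions of 11, in Ryr1 all 4 regions were myotube-only, and only Luc7l2 and Zyx also held a region with a peak in all 4 lists.

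Linking myotube-only regions up to 10 kb apart gave 109 domains, of which 79 held 1 region, 20 held 2 and 10 held 3 or more. Those 10 domains held 50 regions and lay in Ehbp1l1, Ankrd10, Myl1, Luc7l2, Zyx, Ryr1, Igfn1, Dclk1, Gpi1 and Qk. Among the 36 regions with a peak in all 4 lists, 34 domains were formed and none held 3 regions. The 65 myoblast-only regions formed 2 domains of 3 or more. The classes differ in size, 169 myotube-only regions against 36 in all lists, and a larger class has more regions that can fall within 10 kb. These counts are thus not directly comparable, and clustering was not tested.

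Of 11 markers of differentiated muscle, 6 held a myotube-only region (Myl1, Ttn, Neb, Ryr1, Mybph and Trim72) and none of these 6 held a C2C12 peak. The other 5 (Acta1, Ckm, Myh3, Tnnt3 and Mylpf) were in none of the transcript extents used, so only the 6 could hold a named region. Those extents covered 322 symbols. Over all of them, 86 named transcripts held a myotube-only region, and 68 of the 86 had no C2C12 peak, so its absence is not particular to the markers. Gene lists for the sections that follow were compiled with these results known, so their counts are a description. For reference, 163 of all 625 named autosomal regions (26.1%) were myotube-only.

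Sarcomere genes held 15 myotube-only regions among 36 regions in all (41.7%), in 6 of 29 listed genes, and not one C2C12 peak. Only these 6 had a transcript extent, so a region in the others would have no name here. Myl1, the essential light chain of fast myosin, held 7 regions on the minus strand at chr1:66973357-66981832. Their log2 fold enrichment ran from 1.75 to 3.32 in A and from 1.31 to 2.82 in B. The strongest by rank, chr1:66980318-66980386, had 2.49 and 2.82.

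Neb encodes nebulin, which spans the thin filament. Its region chr2:52039774-52039844 had log2 fold enrichments of 4.70 in A and 5.55 in B and the highest −log10 p of any myotube-only region in A (30.2, with 13.3 in B). A second Neb region had 1.84 and 2.01. The stronger one was second by rank sum among the 169.

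Igfn1, a Z-disc protein with immunoglobulin and fibronectin domains, held 3 regions within chr1:137864769-137866183. All were alike, at 2.78 to 2.91 in A and 3.21 to 3.36 in B. Single regions lay in Des, the muscle intermediate filament desmin (2.06 and 2.59), in Ttn, the elastic giant titin (1.75 and 1.71), and in Mybph, a thick-filament protein (1.54 and 1.78). Values of 3 or more in this list were limited to the stronger Neb region in both libraries, the Igfn1 regions in B and 2 Myl1 regions in A.

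Genes of the triad, calcium release and membrane repair held 22 myotube-only regions among 43 (51.2%), in 6 of 14 listed genes, of which 7 had an extent. That share leans on Ehbp1l1, with 9 myotube-only regions in 11, which was put in this list with the results known. Ehbp1l1, a relative of the EH-domain binding proteins of membrane traffic, had 9 of them inside 1626 nt (chr19:5717864-5719489, minus strand), with log2 fold enrichments of 1.93 to 2.92 in A and 1.91 to 3.37 in B. Region chr19:5719221-5719370 had a −log10 p of 10.7 in A and 24.3 in B, the highest in B. No C2C12 peak lay inside this stretch, but a C2C12 A peak (log2 fold enrichment 1.70, −log10 p 5.43) lay 51 nt beyond its 5′ edge.

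Ryr1, the calcium release channel of the sarcoplasmic reticulum, had 4 regions in 784 nt (chr7:29902612-29903395, minus strand) and no other autosomal region of any list. Their log2 fold enrichments were 3.74, 2.02, 3.78 and 3.49 in A and 3.45, 2.34, 3.76 and 3.01 in B. The 3 strong ones were high in both libraries and the weak one low in both. The nearest C2C12 peak on that strand was 156002 nt away.

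Bin1, which shapes the membrane of transverse tubules, held 5 regions at 1.39 to 2.02 in A and 1.19 to 2.26 in B, and 2 C2C12 A peaks at other places. Dysf and Trim72 act in membrane repair. In Dysf 2 regions had 3.05 and 3.25 in A and 2.38 and 2.19 in B, and in Trim72 1 region (chr7:135154032-135154254) had 2.03 in both libraries with a −log10 p of 14.6 and 14.3. Akap6, an anchoring protein of the nuclear envelope, had 1 region at 1.40 and 1.45. Of the 6 genes only Bin1 and Ehbp1l1 had a C2C12 peak, in C2C12 A alone.

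**Figure D4:**
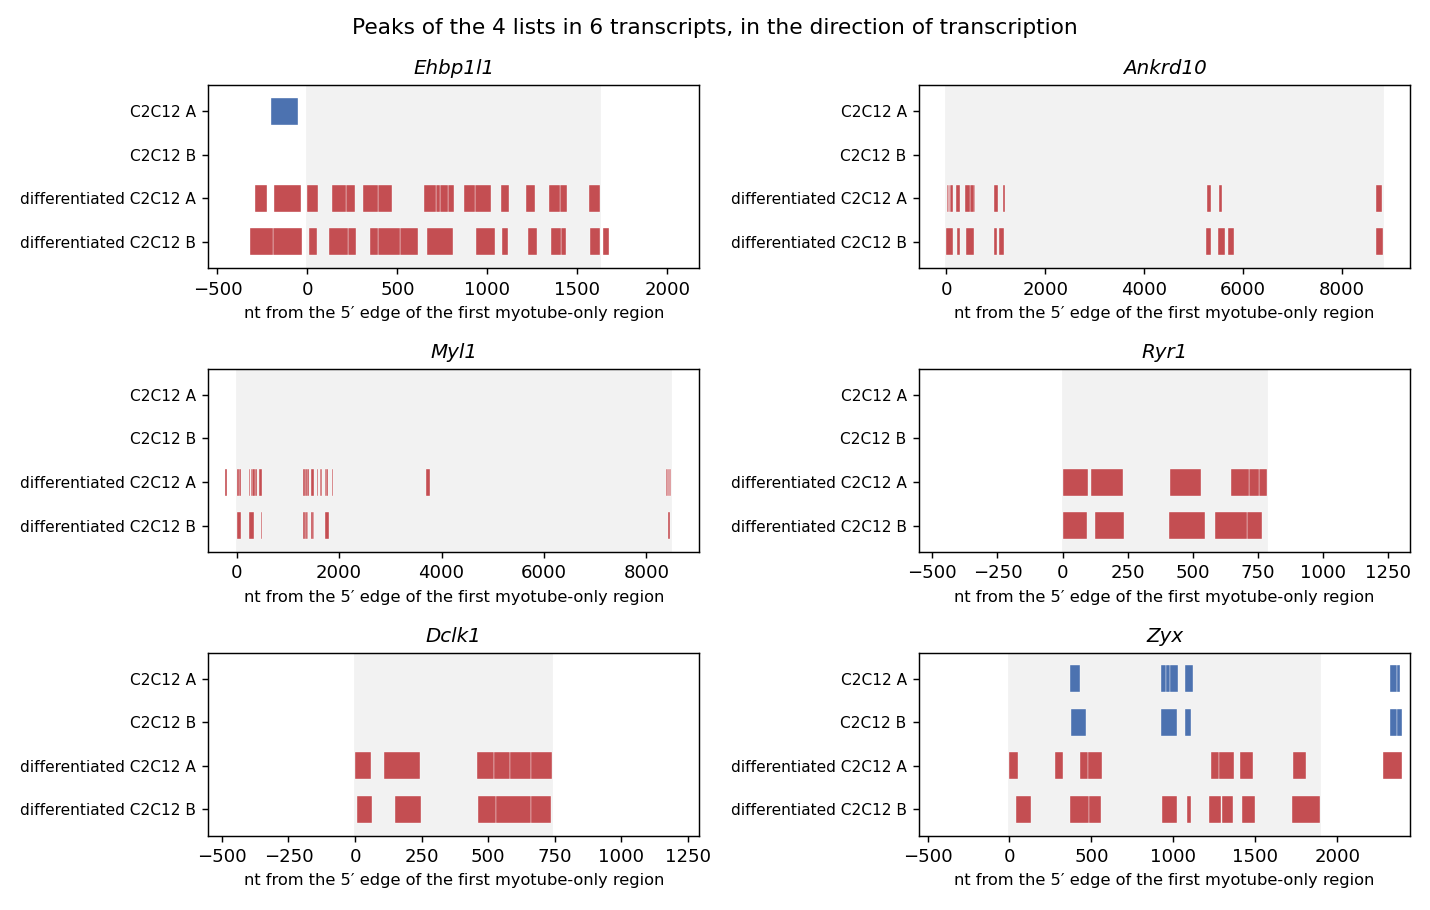
Peaks of the 4 lists in 6 transcripts with a domain of 3 or more myotube-only regions, as distance in nt from the 5′ edge of the domain's first region, along the direction of transcription. Bars are peaks, rows are lists, and the grey band is the domain. Ankrd10, Myl1, Ryr1 and Dclk1 show no C2C12 peak, Ehbp1l1 shows 1 just outside the band, and in Zyx peaks of both C2C12 lists lie between the myotube-only regions.

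Genes of the cytoskeleton and of adhesion held 22 myotube-only regions among 85 (25.9%), close to the 26.1% over all named regions, in 11 of 33 listed genes. Ncam1, an adhesion molecule of the immunoglobulin family, was the strongest. Region chr9:49521746-49521925 had log2 fold enrichments of 4.18 in A and 3.94 in B with a −log10 p of 20.9 and 14.6, and 3 further regions had 2.86 to 3.08 in A and 2.88 to 3.92 in B. None of its 5 regions had a C2C12 peak.

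Several genes of this list held a pair of regions. These were Sorbs2, an adaptor of actin structures (2.32 and 2.49 in A, 2.51 and 2.56 in B), Map4, a microtubule-associated protein (2.04 and 2.67, then 1.84 and 3.05), Macf1, which links actin to microtubules (1.75 and 2.75, then 2.03 and 3.62), Cdh13, a cadherin held by a lipid anchor (1.80 and 2.70, then 2.01 and 2.18), and Lsp1, an actin-binding protein (2.81 and 3.0, then 2.56 and 2.85). Single regions lay in Tln1 (3.12 in A and 2.57 in B), which ties integrins to actin, and in Rock2 (3.39 and 2.63), a kinase of actomyosin contraction. Actr3 (2.98 and 2.88), a subunit of the Arp2/3 complex, and Cobl (2.16 and 2.49), an actin nucleator, held 1 each. None of these genes had a C2C12 peak.

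Zyx, a protein of focal adhesions, was the exception. Its 4 myotube-only regions (2.08 to 2.98 in A, 2.16 to 3.62 in B) lay within chr6:42303300-42305193 among 5 peaks of C2C12 A and 3 of C2C12 B, the closest 98 nt from one of them. Zyx thus combined these with 1 region listed in all 4 libraries, and its other 3 regions with C2C12 peaks had a peak in a single differentiated list.

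RNA-binding and RNA-processing factors were the list with the most regions, 132 in all and 37 of them myotube-only. That share of 28.0% was close to the 26.1% over all named regions. The 37 lay in 20 of 34 listed genes. Of these genes 13 had no C2C12 peak. Qk, the splicing regulator quaking, held 8 regions in 19, all without a C2C12 peak, at 1.59 to 3.12 in A and 1.26 to 2.08 in B. Luc7l2, a factor associated with the U1 snRNP, held 6 regions at 1.17 to 2.15 and 1.45 to 1.95, beside 1 region with a peak in all 4 lists.

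The most enriched regions of this group lay in 3 regulators. They were Celf2, a splicing factor (chr2:6701966-6702117, 5.13 in A and 4.71 in B, with a second region at 2.39 and 2.78), Clk1, a kinase of SR proteins (chr1:58477605-58477776, 4.36 and 4.20), and Raly, another heterogeneous nuclear ribonucleoprotein (chr2:154637990-154638127, 4.16 and 4.41). All 3 transcripts had no C2C12 peak. Raly had a −log10 p of only 5.25 and 5.61, near the lower limit of the lists.

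Other splicing and message-binding regulators had intermediate values. Msi2, a translational regulator of the musashi family, had 3.22 and 3.56 in A and 3.57 and 2.64 in B over 2 regions. Mbnl1, the muscleblind splicing factor, had 3.13 and 2.74, Pcbp2, a poly(C)-binding protein, 3.25 and 3.57, and Zfp106, a zinc finger protein, 3.55 and 1.76. Lower values were found in Ythdf3, a reader of methylated adenosine (2.75 and 2.03), Rbm12b2 (2.68 and 2.85), Srrm1 (2.65 and 1.60), Rbms1 (2.41 and 1.69), Rbfox2 (2.09 and 2.06) and Arglu1 (1.51 and 1.24). Of these, Rbms1 also held 1 C2C12 B peak. Rbfox2 held 1 C2C12 A peak and 2 C2C12 B peaks elsewhere, with 1 region of both C2C12 lists only.

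The protein's own transcript held 11 regions, of which only 2 were myotube-only, and these 2 were among the weaker myotube-only regions. They had 1.23 and 1.54 in A and 1.37 and 1.47 in B. Hnrnpa2b1 also held 1 region with a peak in all 4 lists, 1 of both C2C12 lists only and 7 of other combinations. Ddx5, an RNA helicase (1.87 and 2.21 in A, 1.99 and 1.23 in B), Rsrp1 (1.25 and 1.96, then 1.56 and 1.68) and Sfpq, a paraspeckle protein (1.56 in A and 1.88 in B), were similar in also having C2C12 peaks elsewhere.

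Regulators of transcription and stress responses held 7 myotube-only regions among 28 (25%) in 6 of 11 listed genes, or 6 regions in 5 genes without a region that may belong to Zmiz1 or to an overlapping gene. The share of 25% was close to the 26.1% over all named regions. Mef2a, a transcription factor of muscle differentiation, had one of the most enriched regions (chr7:74429234-74429302, 4.51 in A and 4.62 in B) and a second at 2.71 and 2.49. The −log10 p of the first was only 6.87 in A and 6.41 in B, below the medians of the myotube-only regions. Dyrk1a, a kinase, had 4.10 and 4.03 at chr16:94851390-94851503. It differed from the other strongly enriched regions in lying 377 nt from a C2C12 peak.

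The remaining genes of this list had lower or uneven values. Atf4, a transcription factor of the integrated stress response, had 2.33 in A and 1.27 in B, and Brd1, a bromodomain protein, had 2.91 and 2.09. A region in the overlapping extents of Zmiz1 and 4931406H21Rik had 3.29 and 2.68, and it cannot be assigned to either. Among noncoding RNAs, Rnu12, the U12 snRNA of the minor spliceosome, held the only autosomal region that was left in the list, a myotube-only one of 33 nt with the lowest enrichment of all (0.90 and 0.77).

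Outside these lists, Ankrd10, an ankyrin-repeat protein, held 8 regions over chr8:11619513-11628345 (minus strand). In A they ran from 1.12 to 4.80 and in B only from 1.34 to 1.74, although the −log10 p of the strongest, at chr8:11628214-11628345, was 13.3 in A and 24.0 in B. Dclk1, a doublecortin-like kinase that binds microtubules, held 6 regions at 1.11 to 4.03 in A and 1.24 to 3.34 in B, 3 of them within 741 nt (chr3:55171324-55172064). Neither gene had a C2C12 peak.

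Rtn4, a reticulon of the endoplasmic reticulum, held 5 regions (1.55 to 2.53 in A, 1.51 to 2.80 in B) and 1 C2C12 B peak. Gpi1, a glycolytic enzyme, held 3 (1.63 to 2.27 and 1.93 to 2.75) and 3 C2C12 peaks. Slc7a5, a transporter of large neutral amino acids, had a single region at 2.44 and 2.60 with a −log10 p of 12.5 and 16.2. It had no C2C12 peak.

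The 6 regions in no named transcript included the one with the lowest rank sum. The region chr8:37521120-37521141 on the plus strand was only 22 nt wide, the narrowest of the 169, and had log2 fold enrichments of 5.93 in A and 6.12 in B with a −log10 p of 20.6 and 20.2. Its best peaks stood at rank 44 in A and 45 in B. Region chr3:121995862-121995901 on the minus strand, 40 nt wide, had 6.34 and 3.69.

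The other unnamed regions were less enriched. A pair at chr2:173902112-173902218 and chr2:173902271-173902445 had 2.27 and 2.51 in A and 2.17 and 3.07 in B, one of 40 nt at chr8:126103430-126103469 had 2.10 and 3.16, and one of 46 nt at chr6:38483961-38484006 had 1.29 and 1.24. Of the 7 myotube-only regions narrower than 50 nt, 4 were unnamed.

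Most myotube-only regions lay far from any C2C12 peak on the same strand. The rule itself bars contact with a C2C12 peak, and the C2C12 lists held only 228 and 252 autosomal peaks. Long distances therefore follow in part from sparse lists, and no other class of regions was measured beside them. The distance was counted to the nearest C2C12 peak. Its median was 4683 kb over the 166 regions with any C2C12 peak on their chromosome and strand. Within 10 kb there was a C2C12 peak for 37 regions (21.9%), and these lay in 14 transcripts. Regions of a transcript can share the same nearby C2C12 peak and are not independent, so no interval is given for this share. Within 1 kb there was one for 26 regions, and within 100 nt for 8. Of the 26 regions whose log2 fold enrichment reached 3 in both libraries, 25 had no C2C12 peak within 10 kb.

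**Figure D5:**
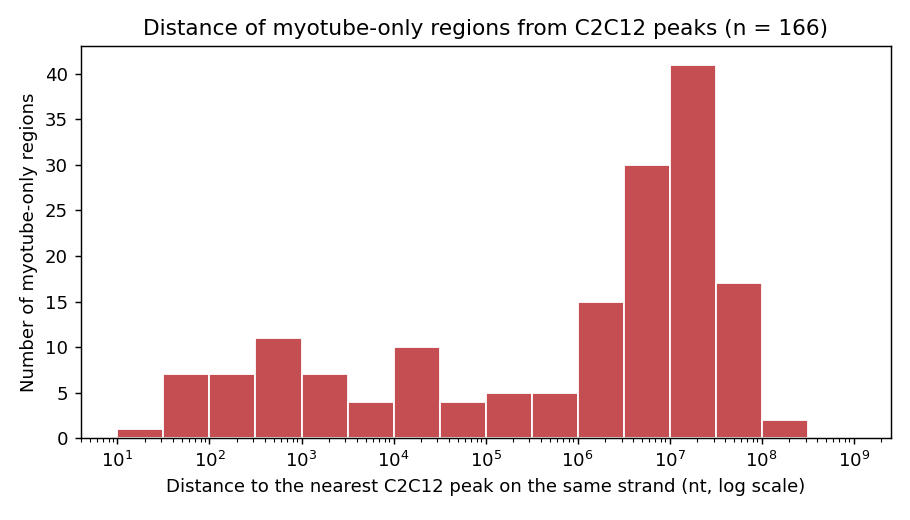
Number of myotube-only regions by distance in nt, on a log scale, to the nearest C2C12 peak on the same strand, for the 166 regions with a C2C12 peak on their chromosome and strand. Of these, 115 lie more than 100 kb away and 26 lie within 1 kb.

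Some regions lay directly beside a C2C12 peak. A Gpi1 region (2.27 in A, 2.75 in B) lay 26 nt from a C2C12 B peak with a log2 fold enrichment of 2.39 and a −log10 p of 6.39. Regions of Ehbp1l1 (51 nt), Rsrp1 (55 nt), Laptm4a (57 nt) and Bin1 (57 nt) followed. Laptm4a, a lysosomal membrane protein, had 1.05 and 0.89 in its region and 1.03 in the C2C12 B peak beside it. Around the 26 regions within 1 kb, 17 had peaks of both C2C12 lists nearby and 9 of a single one, and the nearest C2C12 peak had a median −log10 p of 6.43 (5.15 to 10.9).

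Position along the transcript was read from the same extents. Of the 163 named myotube-only regions 37 (22.7%) lay within 3 kb of the 3′ end, beside 18 of 32 named regions with a peak in all 4 lists (56.3%) and 10 of 61 found in both C2C12 lists only (16.4%). The extents holding them had median lengths of 52765, 28123 and 74823 nt in that order, so 3 kb covers unlike parts of them. As a share of the extent's length from its 5′ end, median positions were 55.4%, 76.5% and 33.3%. Examples near the 3′ end were regions of Cd9, Atf4, Akap6, Lnpep and Swi5. Exons, introns and UTRs were not analysed here, and these shares were not tested against each other, since the classes were defined by the same lists.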

How the data were processed

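Per the study's methods, adapters and repeat reads were removed, reads were aligned to mm9 with STAR (version not given in the sources used here), PCR duplicates were removed, peaks were called with CLIPper in each library and compared with size-matched input. The authors deposited 1 list per immunoprecipitation library with a −log10 p and a log2 fold enrichment for each peak. The methods name a stricter threshold than the lists apply, so a −log10 p of 8 was an alternative. A library with more reads, or an RNA with more copies, passes more peaks. On chromosome 7, 74 peaks end beyond the GRCm38 length of 145441459 nt, so no coordinate was read from that reference, and no sequence is shown.

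Peaks wholly inside chr19:5795600-5802700 or chr19:5824600-5845600, or chr7:149761400-149764100, all on the minus strand, were left out. The rest were merged by strand in Python 3.11.15. The merge matched bedtools 2.31.1 in 866 of 866 regions, and 100% of 600 simulated regions got their true class. The highest log2 fold enrichment and highest −log10 p of a region were taken separately, and came from 1 peak in 147 (A) and 151 (B) of the 169. Exact pairs of values recurred in 32.1% (A) and 42.0% (B) of autosomal peaks, so ties in rank are common. Strands of the study's transcript extents came by symbol from GENCODE M21, or from RefSeq for the rest, for 321 of 322 symbols. Named in the text were the 12 regions of lowest rank sum (best −log10 p rank in each list), the 8 with the highest smaller log2 fold enrichment, the 5 nearest to a C2C12 peak, domains of 3 or more, and every listed gene with a region, apart from 2 genes that are not reported here. Further examples were chosen after their values were seen. The members, lists and rules were chosen with earlier results of these data known.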

Additional observations from a re-analysis of the deposited data

How the results depend on the processing

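The number of myotube-only regions depended on list length and threshold, and none of the causes was tested. Against 169 as deposited it was 61 with a −log10 p of at least 8 in all lists, 49 with that limit in the differentiated lists alone, 26 with a log2 fold enrichment limit of 3 and 51 with equal list lengths. Leaving out 1 library gave 174 to 451, the highest numbers, 399 and 451, without differentiated C2C12 A or B, when a peak in 1 myotube list suffices. Regions in all lists, 36 as deposited, fell to 10, 21, 9 and 22 in the same order of settings, were 68 with the left-out loci kept, and 41 to 46 without 1 library. Regions of both C2C12 lists only, 65 as deposited, were 10 and 35 with the limits on −log10 p and on enrichment in all lists and 74 to 98 without 1 library (98 without C2C12 A). The excess of autosomal peaks in differentiated libraries, 424 as deposited, turned to -21 with the −log10 p limit in the differentiated lists alone, which shortens only those lists. It was 365 to 483 without 1 library.

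The share of myotube-only regions near a C2C12 peak, 21.9% within 10 kb, was 15.4% within 1 kb and 29.0% within 50 kb. It was 4.92% with a −log10 p of at least 8 in all lists and 3.85% with the enrichment limit, settings that also shorten the C2C12 lists. With the −log10 p limit in the differentiated lists alone it was 22.4%. Without 1 library it was 14.7% to 25.6%, the lowest without C2C12 A. The 109 domains became 44 and 36 with the −log10 p limit in all or in the differentiated lists, 24 with the enrichment limit, and 112 to 276 without 1 library (251 and 276 without differentiated C2C12 A or B). The median log2 fold enrichment in A was 2.21 with the mean over a region's peaks, and in B 2.44 with the −log10 p limit in all lists.

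Keeping touching peaks apart, merging over 100 nt or 1 kb, or a log2 fold enrichment limit of 1 left between 121 and 182 myotube-only regions. Dropping the strand requirement left 163 named. The motif search that was planned was not run, for want of a genome of the files' build. No paired analysis was possible because nothing in the labels ties libraries of 1 letter together and no model was fitted.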
